A study of Mus musculus with 12 samples.

Results

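The transcripts described here are Lxn, Rab3b, Tmem132b, Mest, Thrsp, Mrvi1, Pdgfd, Cryab, Tpd52l1 and Adck4, 10 of the 25965 entries in a table of RNA sequencing counts from mouse lower motor neurons. They were chosen because each was higher in the first heterozygote library and the first homozygote library than in all of the other 10 libraries, and all 10 met that rule on raw counts and on counts scaled to library size (CPM). The 2 libraries with these high values also held the least interneuron RNA of the series. Because the members were picked by these values, their excess in the 2 libraries is given as a description without a test, and tests rest on the other 10 libraries only.

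The cells were motor neurons of the lumbar cord, collected by laser capture from C57BL/6 mice that were 5 months old. There were 4 libraries from wild type mice, 4 from mice with 1 copy of the Q331K change knocked into TDP-43 (Q331K/+), and 4 from mice with both copies changed (Q331K/Q331K). TDP-43, the product of Tardbp, binds RNA, and the change was carried by the mouse's own gene rather than by a transgene. It is not stated in the labels if the libraries came from separate animals, and p-values therefore measure only the spread between libraries, which may be technical in part. Tardbp itself lay between 62.3 and 78.7 CPM in the 12 libraries, and a knock-in of this kind leaves its transcript in place, so its level does not check the genotype labels.

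Motor neurons release acetylcholine onto muscle, and choline acetyltransferase, encoded by Chat, makes that transmitter. Chodl encodes chondrolectin, a membrane protein known as a marker of fast motor neurons, which drive the quickly contracting, easily tired muscle fibres. Cells cut by laser from the ventral horn bring with them RNA from whatever lies around and upon them, such as glia, vessels and the inhibitory and excitatory interneurons that contact motor neurons. In CPM values a share gained by one source is lost by the others.

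Heterozygote 1 and homozygote 1 stood apart from the other libraries in their cell type markers, and these values touch every result below. Slc6a5, the glycine transporter of inhibitory interneurons, was at 1.35 CPM in heterozygote 1 and at 0 in homozygote 1, against 123 to 293 CPM in the other 10 libraries. Slc17a6, a vesicular glutamate transporter used by excitatory interneurons, was likewise low, at 0.563 and 4.52 CPM beside 159.7 to 323 CPM. Of 8 inhibitory interneuron markers 7 were below those libraries in both, with Gad2 and Lhx5 at 0 in both. In the same 2 libraries 8 of 10 motor neuron markers tested were above the range, among them Chat, at 353 and 329 CPM against 63.5 to 241 CPM, and Chodl, at 1488 and 1459 CPM against 191 to 574 CPM. Chat and Chodl were detected in all 12 libraries, which shows motor neuron RNA in each but not its share. In wild type 4 Slc17a6 was at 236 CPM and Chat at 63.5 CPM, whereas in wild type 1 they were at 235 and 241 CPM.

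Markers of other cells moved less uniformly in these 2 libraries. None of 10 oligodendrocyte and none of 9 microglial markers left the range of the others in both on the same side, and the summed oligodendrocyte level was 1209 and 1629 CPM against 951 to 2852 CPM. Of 9 astrocyte markers 1, Aldoc, was below the range in both, at 467 and 511 CPM against 791 to 1280 CPM. The summed level of the astrocyte list was 570.0 and 647 CPM against 928 to 1566 CPM, and most of that sum was Aldoc. No other astrocyte marker left the range in both on the same side. Of 9 endothelial markers 1, Ly6c1, was below the range in both, at 4.13 and 3.86 CPM against 5.36 to 17.0 CPM. The summed endothelial level was 11.6 and 23.5 CPM against 16.4 to 38.6 CPM. None of 10 mural cell markers left the range in both on the same side. Their summed level was 5.66 and 12.4 CPM against 5.74 to 34.5 CPM. Kcnj8 and Abcc9 were at 0 in both, a value that each also had among the other libraries. Both Schwann cell markers tested, Pmp22 and Sox10, were above the range, Pmp22 at 800.1 and 823 CPM against 120.3 to 346 CPM, whereas the myelin genes Prx and Egr2 were at 0. Of 5 fibroblast and meningeal markers tested 1, Dcn, was also above it, at 37.0 and 71.8 CPM against 1.04 to 36.9 CPM, and none was below. The part of these other sources in the members' levels was not tested. In bulk samples such as these, fewer cells of a type and less RNA per cell cannot be told apart.

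A high value in both libraries was common. Of 16574 genes tested, 1668 were above the other 10 libraries in both, which is 10.1%, and 1727 were below in both, which is 10.4%. That 10 of 10 members were above is fixed by their choice. The mean of the 2 libraries was 2.55 to 4.99 times the median of the other 10, with a median over the members of 3.39. When the genes with a mean of at least 10 CPM were ordered by the lower of the 2 values over the highest of the other 10, Mest came first with 2.85, then Rab3b with 2.64 and Chodl next with 2.54. The remaining members ranked from 6 (Thrsp, 2.33) to 24 (Cryab, 2.00). The members are thus 10 of the 24 genes with a ratio at least as large as that of Cryab, and the others of the 24 include Calcb, Itm2a, Pmp22, Mmp9 and Calca. At the edge of the rule, Ik, Tmx4 and Gm15446 lay just inside with ratios of 1.00, and Timm22, Gm5868 and Cse1l just outside.

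**Figure D1:**
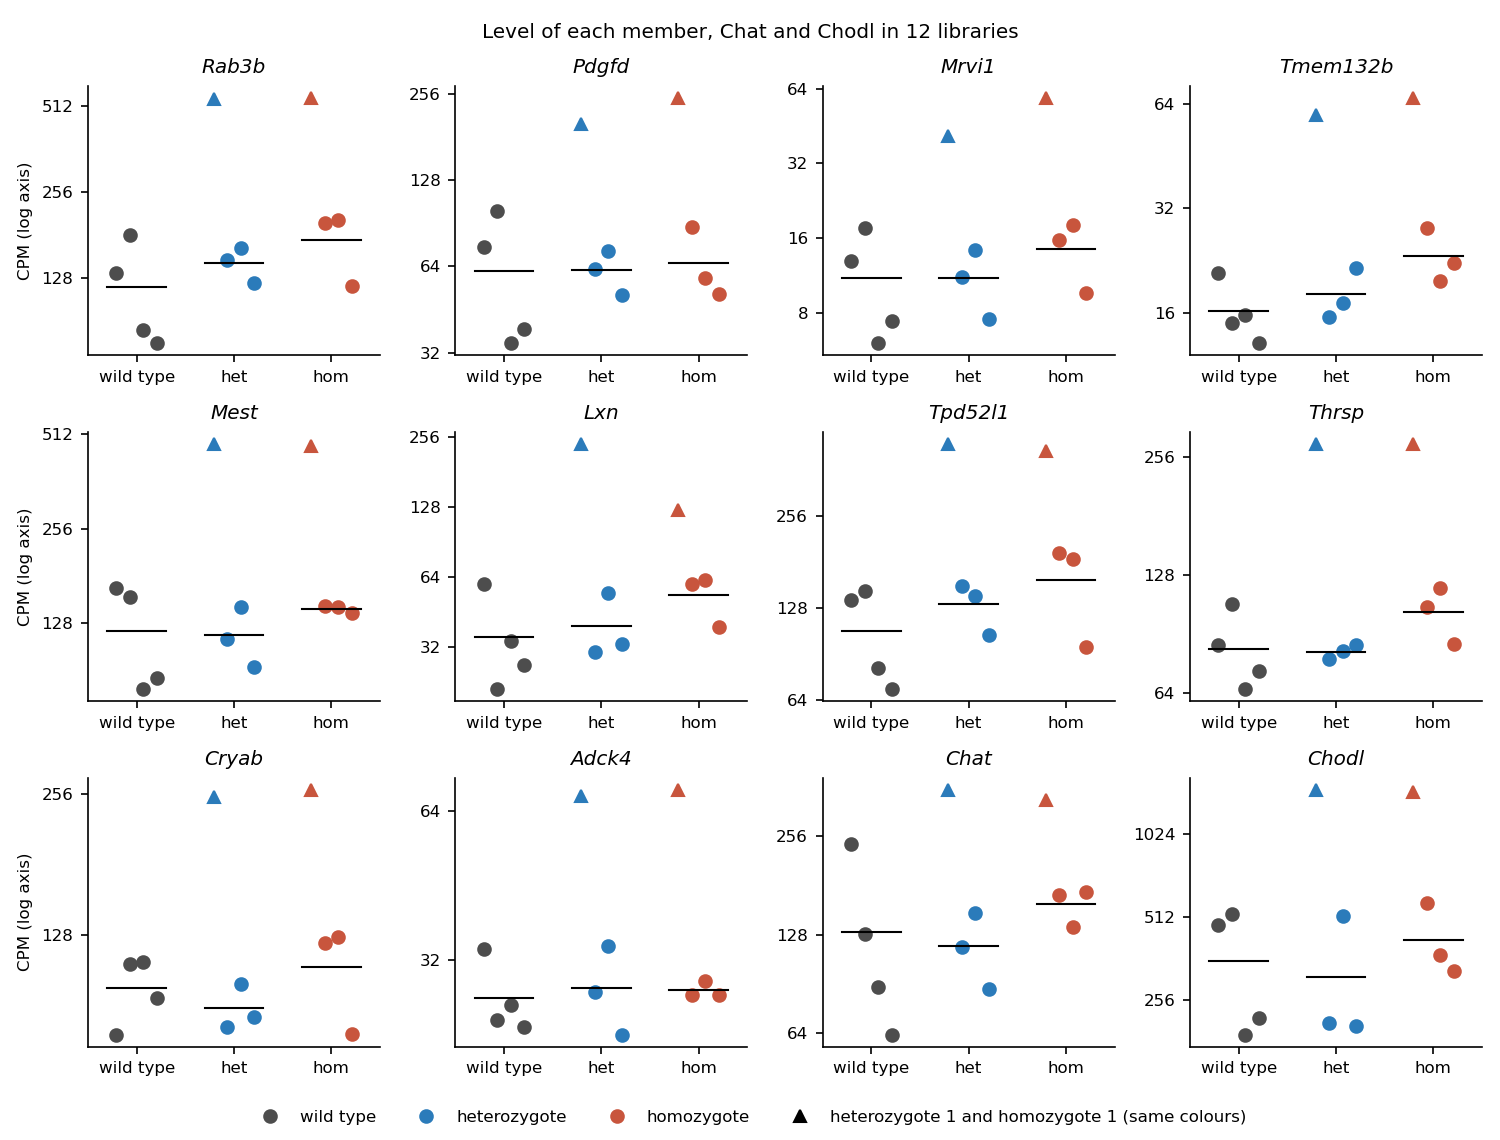
Level of each member, Chat and Chodl in the 12 libraries, in CPM on a log axis, by genotype (het, heterozygote; hom, homozygote). Points are libraries in replicate order, triangles are heterozygote 1 and homozygote 1, and black lines are means of the libraries drawn as circles. Every triangle lies above every circle of its panel, with Rab3b at 539 and 543 CPM against at most 204 CPM.

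Rab3b encodes a small GTPase of the RAB3 family, which sits on synaptic and secretory vesicles and helps control their release. Its gene lies on chromosome 4 at 108879063 to 108943324 on the plus strand of build GRCm38. Wild type replicates 1 to 4 held 133, 182, 84.6 and 76.0 CPM of Rab3b, heterozygotes 1 to 4 held 539, 147.7, 164 and 123 CPM, and homozygotes 1 to 4 held 543, 199, 204 and 120.1 CPM. Heterozygote 1 and homozygote 1 were almost level with each other, and among the other 10 libraries the 3 genotypes overlapped, with wild type 3 and 4 the lowest. Among 11 tested genes of RAB3 GTPases and their partners only Rab3d, a GTPase of secretory granules, was above the range in both libraries, at 29.3 and 26.5 CPM against 1.63 to 16.2 CPM. Rab3a, the most abundant RAB3 transcript here, was within the range of the other libraries, at 1339 and 1494 CPM against 1324 to 1699 CPM, as was Rab3c. Rims1, a scaffold of the release site that binds RAB3, was below the range at 54.8 and 50.5 CPM, and so was Rab3il1, at 12.1 and 12.4 CPM.

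Tpd52l1 was the member closest to Rab3b in pattern, and its protein belongs to the small coiled-coil TPD52 family linked to membrane trafficking. The gene is on chromosome 10 at 31332380 to 31445921 on the minus strand. Tpd52l1 stood at 135, 145, 81.1 and 69.6 CPM in wild type 1 to 4, at 439, 150.5, 139.9 and 104 CPM in the heterozygotes and at 415, 194, 185 and 95.2 CPM in the homozygotes. Wild type 3 and 4 and homozygote 4 were the 3 lowest, and the genotypes overlapped. Per kilobase of exon it was the most abundant member in the other 10 libraries, with a median of 104 CPM per kb against 39.8 for Rab3b. The family members that were not chosen did not follow it: Tpd52 was lower in both than in any of the other 10, at 31.3 and 30.2 CPM against 42.4 to 60.6 CPM, and Tpd52l2, at 172 and 196 CPM against 135 to 178 CPM, was above it in homozygote 1 only.

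The promoters of Rab3b and Tpd52l1 are shown because these 2 members moved together most closely, and that of Mest because it had the steadiest relation to the motor neuron markers. Each line gives the 250 bases before the annotated start, 5′ to 3′ on the gene's strand, from RefSeq on GRCm38.p6. Capitals mark the GC box GGGCGG, on either strand, and the TATA box TATAAA. The windows are chr4:108878820-108879069 for Rab3b (plus strand), chr10:31445959-31446208 for Tpd52l1 (minus strand) and chr6:30737800-30738049 for Mest (plus strand).
Rab3b: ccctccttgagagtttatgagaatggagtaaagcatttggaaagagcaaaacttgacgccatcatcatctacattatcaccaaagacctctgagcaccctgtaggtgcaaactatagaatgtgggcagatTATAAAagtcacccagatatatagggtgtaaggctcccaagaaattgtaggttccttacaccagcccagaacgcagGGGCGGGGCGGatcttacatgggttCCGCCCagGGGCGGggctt
Tpd52l1: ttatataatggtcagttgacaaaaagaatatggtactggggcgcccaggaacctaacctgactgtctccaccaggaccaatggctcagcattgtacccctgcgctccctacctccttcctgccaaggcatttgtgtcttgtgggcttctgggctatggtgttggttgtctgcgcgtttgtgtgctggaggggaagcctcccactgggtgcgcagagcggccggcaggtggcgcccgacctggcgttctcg
Mest: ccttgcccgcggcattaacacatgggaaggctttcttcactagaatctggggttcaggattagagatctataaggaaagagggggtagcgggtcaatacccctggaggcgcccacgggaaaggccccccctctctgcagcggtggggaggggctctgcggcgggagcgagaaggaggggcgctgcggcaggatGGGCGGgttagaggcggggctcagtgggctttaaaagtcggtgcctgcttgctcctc

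Rab3b had 4 GC boxes in this window, the nearest 11 bases before the start and the pair farthest from it sharing a base, and a TATA box 120 bases before it. Tpd52l1 had none before the start, and its GC box lay 32 bases after it. The Mest start shown had 1 GC box, 57 bases before it. Searched from 250 bases before to 50 after the start, the GC box was present in 8 of 11 promoters of the 8 members in the RefSeq table and in 35.7% of all 32851 promoters. By gene it was found for Lxn, Mest, Mrvi1, Rab3b, Tmem132b and Tpd52l1. The share of G and C bases in the member promoters ran from 46.3% (the second Mrvi1 promoter) to 67.7% (Tmem132b). It was above the median of all promoters, 52.7%, for all but Rab3b and that Mrvi1 promoter. The part of base composition in the GC box count was not tested. Mest and Mrvi1 have more than 1 promoter among the 11. The Mest windows that begin at 30737800 and 30737803 overlap almost fully, so the 11 are not independent. TATAAA was found for Rab3b and Pdgfd only, against 13.6% of all promoters. The E-box CANNTG was in 10 of 11, against 72.3%, the homeodomain core TAATTA and the cAMP element TGACGTCA in none, against 5.29% and 1.79%, and the heat shock cores TTCNNGAA and GAANNTTC in 1 and in none, against 8.52% and 7.86%. That heat shock core and the only nuclear receptor element AAGGTCA, found in 4.72% of all promoters, were both in the second Mrvi1 promoter. These matches describe letters in a window and no binding.

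Pdgfd encodes a secreted growth factor that, once cleaved, acts on the PDGF receptor beta. Its position is chromosome 9 at 6168612 to 6378843 on the plus strand. In wild type 1 to 4 it was at 74.5, 99.5, 34.6 and 38.6 CPM. Heterozygotes 1 to 4 gave 202, 62.7, 72.5 and 50.6 CPM, and homozygotes 1 to 4 gave 247, 88.2, 58.3 and 51.2 CPM. Wild type replicates alone spanned the full range of the other 10 libraries, with wild type 2 the highest and wild type 3 the lowest. The receptor genes were at or near 0: Pdgfrb was at 0.0422 and 0 CPM in the 2 libraries and at most 0.734 CPM in the others, and Pdgfra at 2.39 and 1.12 CPM. Of the 6 tested genes of the PDGF list 1 was above the range in both, Nrp1, a co-receptor for semaphorins and VEGF also reported to bind PDGF ligands, at 75.8 and 68.4 CPM against 11.7 to 37.4 CPM. Pdgfa, the most abundant other ligand, was within the range, at 47.4 and 49.6 CPM.

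Mrvi1, also called Irag1, encodes a membrane protein of the endoplasmic reticulum that ties cGMP-dependent kinase to IP3 receptors and dampens calcium release. It lies on chromosome 7 at 110868266 to 110982461 on the minus strand. Mrvi1 was the member with the lowest level per kilobase, with a median of 1.76 CPM per kb in the other 10 libraries. In heterozygote 1 it was at 41.5 CPM and in homozygote 1 at 58.7 CPM, against a lowest value of 6.03 CPM in wild type 3 and a highest of 18.1 CPM in homozygote 3. The genes of its complex did not move as a group: of 8 tested, Itpr3 was above the range in both libraries, at 43.3 and 31.3 CPM, and Prkg2 and Gucy1a3, a cGMP kinase and a subunit of the cGMP-making cyclase, were below it. Prkg1, the kinase that phosphorylates the Mrvi1 product, was at 0.676 and 3.23 CPM against 0 to 3.03 CPM.

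Tmem132b encodes a single-pass membrane protein of little-known function and lies on chromosome 5 at 125532418 to 125792583 on the plus strand. Wild type 1 to 4 held 20.8, 14.9, 15.7 and 13.1 CPM, heterozygotes 1 to 4 held 59.4, 15.6, 17.1 and 21.5 CPM, and homozygotes 1 to 4 held 66.4, 28.1, 19.7 and 22.3 CPM. Homozygotes 2 and 4 were higher than all 4 wild type libraries, and homozygote 3 was higher than 3 of them. None of the 4 other TMEM132 genes was outside the range in both libraries on the same side.

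Mest is an imprinted gene read from the paternal copy, and its protein has the fold of a hydrolase. The gene is found on chromosome 6 at 30723547 to 30748455 on the plus strand. Its wild type values were 165, 155, 79.0 and 85.6 CPM, those of heterozygotes 1 to 4 were 477, 114, 144 and 92.6 CPM, and those of homozygotes 1 to 4 were 472, 145, 144 and 138 CPM. Homozygotes 2 to 4 lay close together, and wild type 3 was the lowest library. Copg2, its neighbour on the opposite strand, overlaps its end and was also above the range in both, at 199 and 193 CPM against 81.9 to 127 CPM. The libraries are not stranded and the Copg2 counts came to 66.9% of the Mest counts, so reads from the overlap cannot be told apart. Of 13 tested genes in a list of this cluster and other paternally expressed genes, Copg2 and Ndn were above and Klhdc10, Peg3, Snrpn, Dlk1 and Impact below. Dlk1, a membrane protein of the Notch ligand family, was at 0.0141 and 0 CPM against 6.55 to 31.6 CPM, so the direction in these 2 libraries differed between paternally expressed genes.

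Lxn encodes latexin, an inhibitor of metallocarboxypeptidases known from cortical and sensory neurons. It lies on chromosome 3 at 67457998 to 67463926 on the minus strand, within Gfm1, a mitochondrial elongation factor gene of the opposite strand. Its values in wild type 1 to 4 were 59.7, 21.1, 33.9 and 26.8 CPM. The heterozygotes gave 239, 30.4, 54.7 and 32.9 CPM and the homozygotes 124, 59.4, 62.0 and 38.8 CPM. Lxn was the member with the least alike values in the 2 libraries, 1.92 times as high in heterozygote 1 as in homozygote 1. Gfm1 was above the range as well, at 130.1 and 117 CPM against 79.2 to 95.7 CPM, and its counts came to 145% of the Lxn counts, so without strand the Lxn values are uncertain. Cpa4, a secreted carboxypeptidase, was above the range at 5.18 and 4.86 CPM, and Cpe, the carboxypeptidase of neuropeptide processing, was below it at 469.8 and 501 CPM against 649 to 887 CPM.

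Thrsp, also called Spot 14, encodes a nuclear protein that responds to thyroid hormone and promotes fatty acid synthesis. Its gene is on chromosome 7 at 97412938 to 97417730 on the minus strand. Heterozygote 1 and homozygote 1 differed by little, at 276 and 275 CPM, and the other 10 libraries lay between 65.5 CPM in wild type 3 and 118 CPM in homozygote 3, with a median of 84.7 CPM. Of 11 tested genes of fatty acid synthesis, Acly and Scd1 were above the range in both and Acacb and Elovl6 below. Acly, which makes cytosolic acetyl-CoA from citrate, reached 1762 and 1570 CPM against 431 to 1324 CPM. Scd1, a desaturase, stood at 45.9 and 47.8 CPM against 13.2 to 35.0 CPM. Fasn, fatty acid synthase, was above the range in heterozygote 1 only, at 183 CPM against 70.9 to 149 CPM. Mid1ip1, the relative of Thrsp, stayed within it at 101 and 93.4 CPM.

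Cryab encodes alpha-B crystallin, a small heat shock protein that holds unfolding proteins in solution. It lies on chromosome 9 at 50752758 to 50756633 on the plus strand. Cryab stood at 78.2, 111, 112 and 93.5 CPM in wild type 1 to 4, at 253, 81.2, 101 and 85.4 CPM in heterozygotes 1 to 4 and at 262, 123, 126 and 78.5 CPM in homozygotes 1 to 4. Wild type 1, the library with the highest Chat of the 10, had the lowest Cryab. Cryab is also made by oligodendrocytes, and no marker of theirs was outside the range in both high libraries on the same side, although Mog was above it in homozygote 1, at 39.6 CPM against at most 33.7 CPM. A list of small heat shock proteins and inducible chaperones, with the heat shock factors Hsf1 and Hsf4, had 12 tested genes. Of these 5 were above the range in both and none below, beside 10.1% and 10.4% of all genes tested. This was the most above of any of the 10 lists of genes related to the members. The 5 were Hspb1 at 621 and 795 CPM against 107.8 to 356 CPM, Hspb6, Hspb8, Dnajb1 and Bag3, the co-chaperone of Hspb8. The inducible Hspa1a and Hspa1b were within the range, at 10.2 and 6.87 CPM and at 4.22 and 5.83 CPM.

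Adck4, now named Coq8b, encodes a mitochondrial kinase-like protein of coenzyme Q synthesis. It lies on chromosome 7 at 27233023 to 27262252 on the plus strand. It was at 68.6 and 70.6 CPM in the 2 libraries, and between 22.7 CPM in heterozygote 4 and 34.2 CPM in heterozygote 3 in the others, the narrowest spread of any member with a coefficient of variation of 14.3%. Adck4 overlaps Numbl on the same strand and Gm15567 on the opposite strand, with counts that came to 30.0% and 17.1% of its own. The coenzyme Q genes did not share its excess: of 15 tested, none was above the range in both and Adck5 was below it.

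Over all 10 related lists, 14 of 88 tested genes were above the range in both libraries and 14 were below, which is 15.9% each, beside 10.1% and 10.4% of all genes tested. Among genes with a mean of 10 CPM or more the counts were 12 above and 12 below of 63 related genes, 19.0% each, beside 14.7% and 12.7%. Lxn, Mrvi1, Pdgfd, Tpd52l1, Rab3b and Mest varied more over the other 10 libraries than at least 85.7% of genes with a mean of 10 CPM or more, by their coefficients of variation of 24.5% to 36.7%. For Tmem132b, Thrsp, Cryab and Adck4 that share of genes was 84.1%, 70.7%, 69.0% and 49.75%. Among these libraries homozygote 2 was among the 3 highest for 9 members and homozygote 3 for 7, whereas wild type 4 was among the 3 lowest for 9 and wild type 3 for 6.

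Expressing the members relative to the motor neuron markers removes the library scaling. Per 100 Chodl counts, 9 of 10 members lay in both high libraries within the range of the other 10, and Pdgfd lay below it in heterozygote 1, at 13.5 against 14.1 to 29.8. Rab3b was at 36.2 and 37.2 per 100 Chodl counts, beside a median of 35.9 in the others. Mest was at 32.1 and 32.3, beside a median of 38.9 and a range of 25.3 to 54.2. Per 100 Chat counts 6 members lay within the range, and Rab3b and Mest lay above it in both: Rab3b at 153 and 165 against 55.2 to 151, and Mest at 135.1 and 144 against 68.7 to 134.8. Lxn was above the range in heterozygote 1 only, at 67.6 against 16.4 to 45.8, and Mrvi1 in homozygote 1 only, at 17.9 against 5.37 to 13.7. The excess of Mest in heterozygote 1 over the highest other library was small. All of these ratios use the values that chose the members and are given as a description only. How many of all genes lay within such ranges was not counted, so these counts do not set the members apart. Chodl itself had a lower of the 2 values over the highest of the other 10 of 2.54, beside 2.00 to 2.85 for the members.

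**Figure D2:**
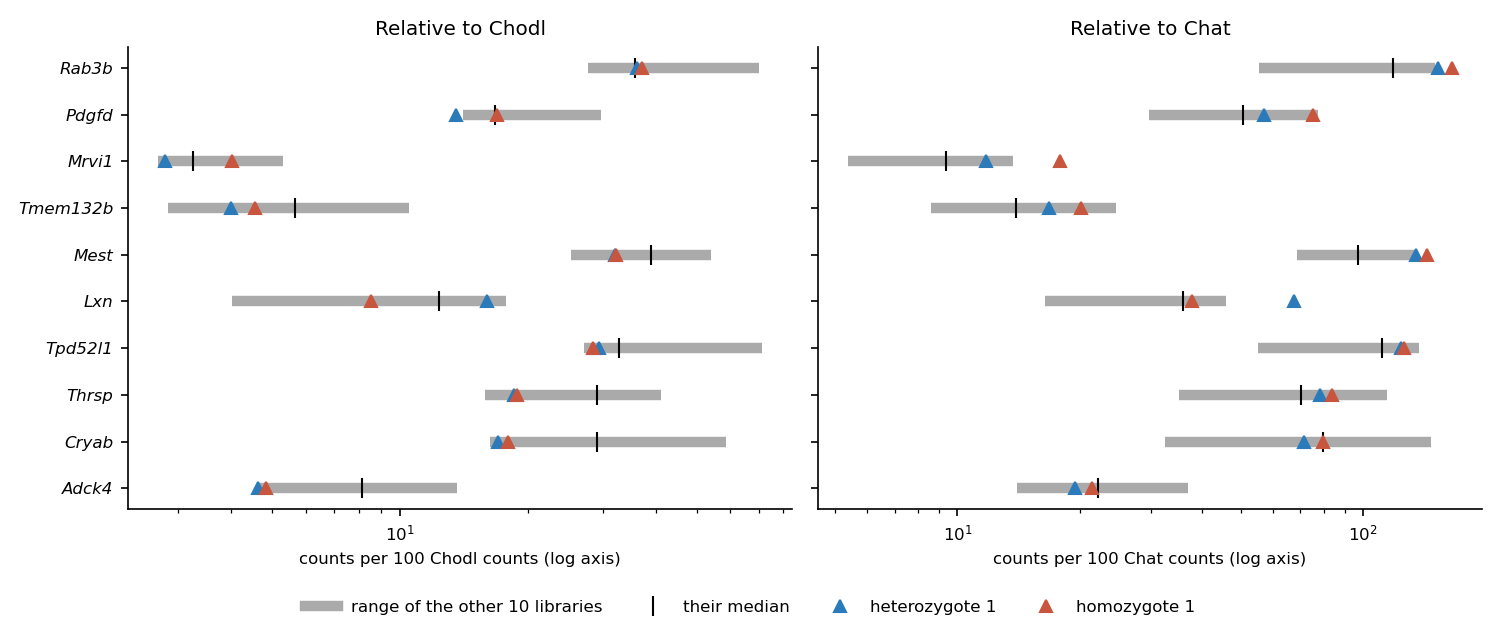
Counts of each member per 100 counts of Chodl (left) or Chat (right), on log axes. Grey bars span the other 10 libraries, black ticks are their medians, and triangles are heterozygote 1 and homozygote 1. For Chodl all triangles but that of Pdgfd in heterozygote 1 lie within the bars, and for Chat both triangles of Rab3b and Mest lie beyond them.

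Whether the members follow Chodl and Chat in libraries that did not serve to choose them was tested in the other 10. A slope gives the change in log2 CPM of a gene per log2 unit of the marker, fitted by edgeR's quasi-likelihood test with Benjamini-Hochberg adjustment over all genes. On Chat, Mest rose with a slope of 0.60 (SE 0.10, 95% interval 0.38 to 0.83, edgeR adjusted p = 0.0210). It was the only member called, beside 126 of 16573 genes called with a positive slope (0.76%) and 41 with a negative one (0.247%). The slopes of 9 of 10 members were above 0, beside 49.4% of all genes, and 8 had an unadjusted p below 0.05, beside 6.96% of all genes in that direction. The median member slope was 0.57, and that of all genes was -0.00. Cryab was the exception, with a slope of -0.04 and an interval of -0.36 to 0.28.

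Markers of some cell types moved with or against Chat over the same 10 libraries, and those of others were mixed. Of the 9 other motor neuron markers 8 had slopes above 0, with a median of 0.77, and Prph and Slc5a7 were called. Of 8 inhibitory interneuron markers 1 had a slope above 0, with a median of -0.67. An unadjusted p below 0.05 was found for 5 of them, beside 2172 of all 16573 genes in either direction. Slopes were above 0 for 2 of 4 excitatory interneuron (median 0.22), 4 of 9 microglial and 5 of 9 endothelial markers. The same held for 2 of 10 mural cell, 1 of 5 fibroblast and 1 of 2 Schwann cell markers. No slope was above 0 for 9 astrocyte markers (median -0.45) or 10 oligodendrocyte markers (median -0.45), and Pmp22 was called with a positive slope. For Chodl the counts above 0 were 9 of 9 motor neuron, 1 of 8 inhibitory interneuron, 1 of 9 astrocyte and 0 of 10 oligodendrocyte markers. They were 1 of 4 excitatory interneuron, 1 of 9 microglial, 5 of 9 endothelial, 4 of 10 mural cell, 1 of 5 fibroblast and 2 of 2 Schwann cell markers. The part of these sources in the members' slopes was not tested.

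The call of Mest did not hold under every setting. With edgeR it was lost when genotype was put into the model (slope 0.59, adjusted p = 0.0560), without wild type 1 (0.68, adjusted p = 0.0970), without wild type 4 (0.66, adjusted p = 0.0740) and without heterozygote 4 (0.58, adjusted p = 0.0529). Over its alternatives the edgeR and DESeq2 adjusted p ran from 6.6e-07 to 0.323, and the slope stayed between 0.54 and 0.68 in the 10 libraries or fewer. Wild type 1 weighed most on the number of genes called for Chat, which fell from 167 to 12 without it.

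On Chodl none of 16573 genes passed by edgeR, although 1391 had an unadjusted p below 0.05, and DESeq2 called 190. All 10 member slopes were above 0, beside 49.9% of all genes, and 7 had an unadjusted p below 0.05, beside 4.38% of all genes in that direction. The slopes ran from 0.14 for Cryab (interval -0.12 to 0.40) to 0.73 for Mrvi1 (0.35 to 1.11), with a median of 0.49 beside -0.00 for all genes. Mest had a slope of 0.53 (0.34 to 0.73, edgeR adjusted p = 0.129) and Pdgfd of 0.63 (0.36 to 0.91, edgeR adjusted p = 0.212). DESeq2 called 4 members on Chodl, namely Mest, Pdgfd, Mrvi1 and Rab3b, beside 122 of all genes with a positive slope (0.736%). On Chat it called 3, namely Mest, Pdgfd and Lxn, beside 470 of all genes with a positive slope (2.84%). Chodl and Chat ran together in these libraries, with Pearson's r 0.75 (permutation p = 0.0125, adjusted p = 0.450) and Spearman's rho 0.64 (permutation p = 0.0545, adjusted p = 0.671) and r 0.66 without wild type 3 and heterozygote 4, so the 2 slopes are not independent of each other.

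**Figure D3:**
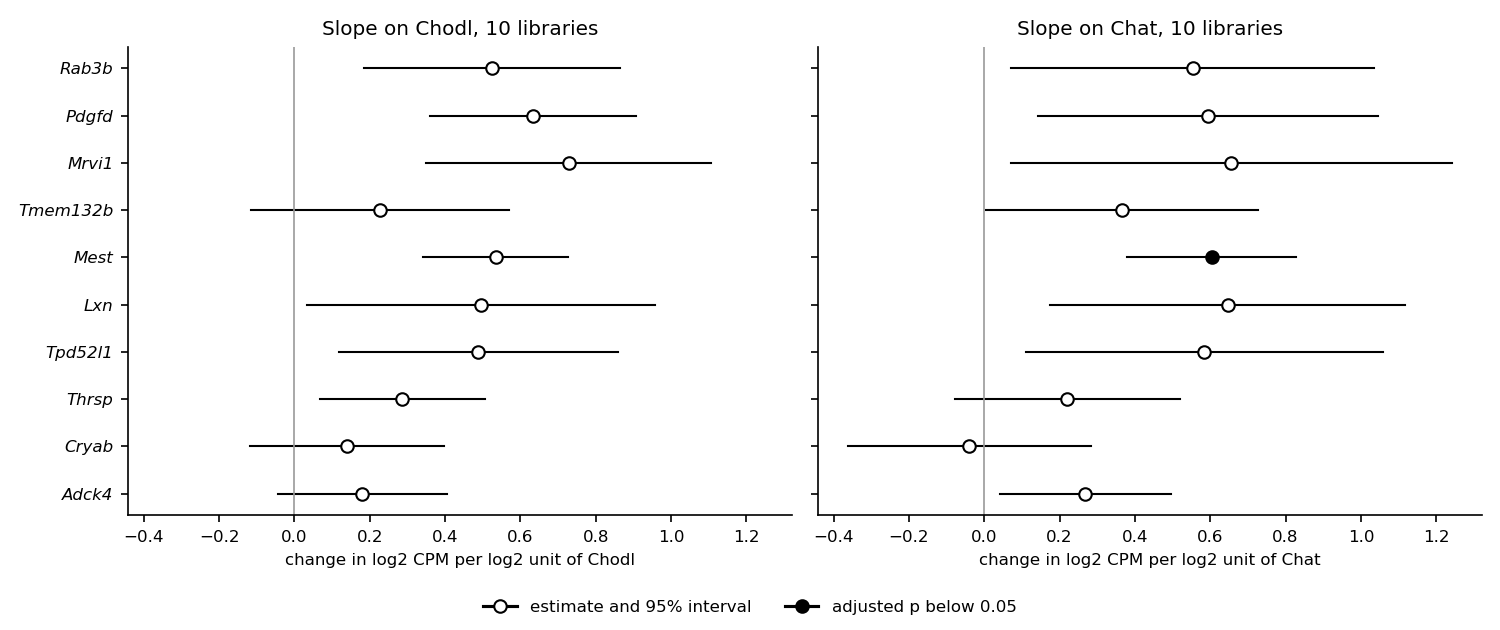
Slope of each member on Chodl (left) and Chat (right) over the 10 libraries not used to choose the members, as the change in log2 CPM per log2 unit of the marker with 95% intervals. The filled point, Mest on Chat at 0.60, passed at an adjusted p below 0.05, and Cryab on Chat at -0.04 is the only slope below 0.

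Of the 88 related genes, 21 had an unadjusted edgeR p below 0.05 for Chat, beside 2172 of all 16573 genes. For Chat 5 were called, each with a positive slope, beside 126 of all 16573 genes (0.76%), and for Chodl none. The 5 called were Hspb8 (slope 0.79, edgeR adjusted p = 0.00263), Bag3 (0.70, edgeR adjusted p = 0.00715), Acly (0.74, edgeR adjusted p = 0.0131), Nrp1 (0.83, edgeR adjusted p = 0.0433) and Rab3d (1.56, edgeR adjusted p = 0.0478). These are the chaperone partners of the Cryab list, the acetyl-CoA enzyme of the Thrsp list, the co-receptor of the Pdgfd list and the secretory granule GTPase of the Rab3b list, and all 5 were also above the range in heterozygote 1 and homozygote 1. Without wild type 1 the edgeR adjusted p was 0.159 for Acly, 0.0970 for Bag3, 0.286 for Nrp1 and 0.174 for Rab3d, and without wild type 4 that of Bag3 was 0.0514. Nrp1 also lost its call with genotype in the model (edgeR adjusted p = 0.0594) and without wild type 3 or 4, heterozygote 3 or 4 or homozygote 3 or 4, with an adjusted p from 0.0542 up to 0.150. Rab3d lost its call with no filter on low counts (edgeR adjusted p = 0.0526) and without wild type 2, 3 or 4, heterozygote 2 or 3 or homozygote 2 or 3, with an adjusted p from 0.0607 up to 0.183. Hspb8 kept its call when any single library was left out, but with the replicate number as a block it lost it, as did the other 4 genes (Hspb8 slope 0.82, edgeR adjusted p = 0.227). Of the tested libraries only wild type 1 is numbered 1, so that block also sets wild type 1 aside.

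Correlations of log2 CPM over the same 10 libraries were computed for all genes with each marker, with permutation p-values from 100000 resamples. For Mest and Chodl, Pearson's r was 0.90 (permutation p = 0.00035, adjusted p = 0.383) and Spearman's rho 0.88 (permutation p = 0.00153, adjusted p = 0.590), and r was 0.83 without wild type 3 and heterozygote 4, the libraries farthest from the median of Chodl. For Mest and Chat, r was 0.89 (permutation p = 0.00044, adjusted p = 0.0784) and rho 0.77 (permutation p = 0.0127, adjusted p = 0.285), and r was 0.87 without wild type 1 and 4. Pdgfd and Chodl gave r 0.85 (permutation p = 0.00220, adjusted p = 0.383) and rho 0.88 (permutation p = 0.00145, adjusted p = 0.590), with r 0.81 without the 2 farthest libraries. Mest and Pdgfd were thus the members whose order of libraries was closest to that of Chodl. No gene passed at an adjusted permutation p below 0.05 for either marker, by r or by rho, although 1482 genes had an unadjusted p below 0.05 for Chodl by r and 2174 for Chat.

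Cryab followed Chat least of the members, and Tmem132b, Cryab and Lxn had the lowest rho with Chodl. The correlation of Cryab with Chat was r -0.11 (permutation p = 0.752, adjusted p = 0.927) and rho -0.20 (permutation p = 0.584, adjusted p = 0.883), with r 0.11 without wild type 1 and 4. For Tmem132b and Chodl, r was 0.41 (permutation p = 0.233, adjusted p = 0.753) and rho 0.22 (permutation p = 0.537, adjusted p = 0.924), with r 0.53 without wild type 3 and heterozygote 4. That of Lxn with Chodl was r 0.48 (permutation p = 0.153, adjusted p = 0.693) and rho 0.31 (permutation p = 0.389, adjusted p = 0.882), with r 0.45 without the 2 farthest libraries. Wild type 2, which had the lowest Lxn of all libraries at 21.1 CPM and the second highest Chodl of the 10 at 527 CPM, decided that value, and r was 0.90 without it. With Chat, Lxn was among the closer members, at r 0.64 (permutation p = 0.0468, adjusted p = 0.372) and rho 0.68 (permutation p = 0.0354, adjusted p = 0.410), with r 0.47 without wild type 1 and 4.

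**Figure D4:**
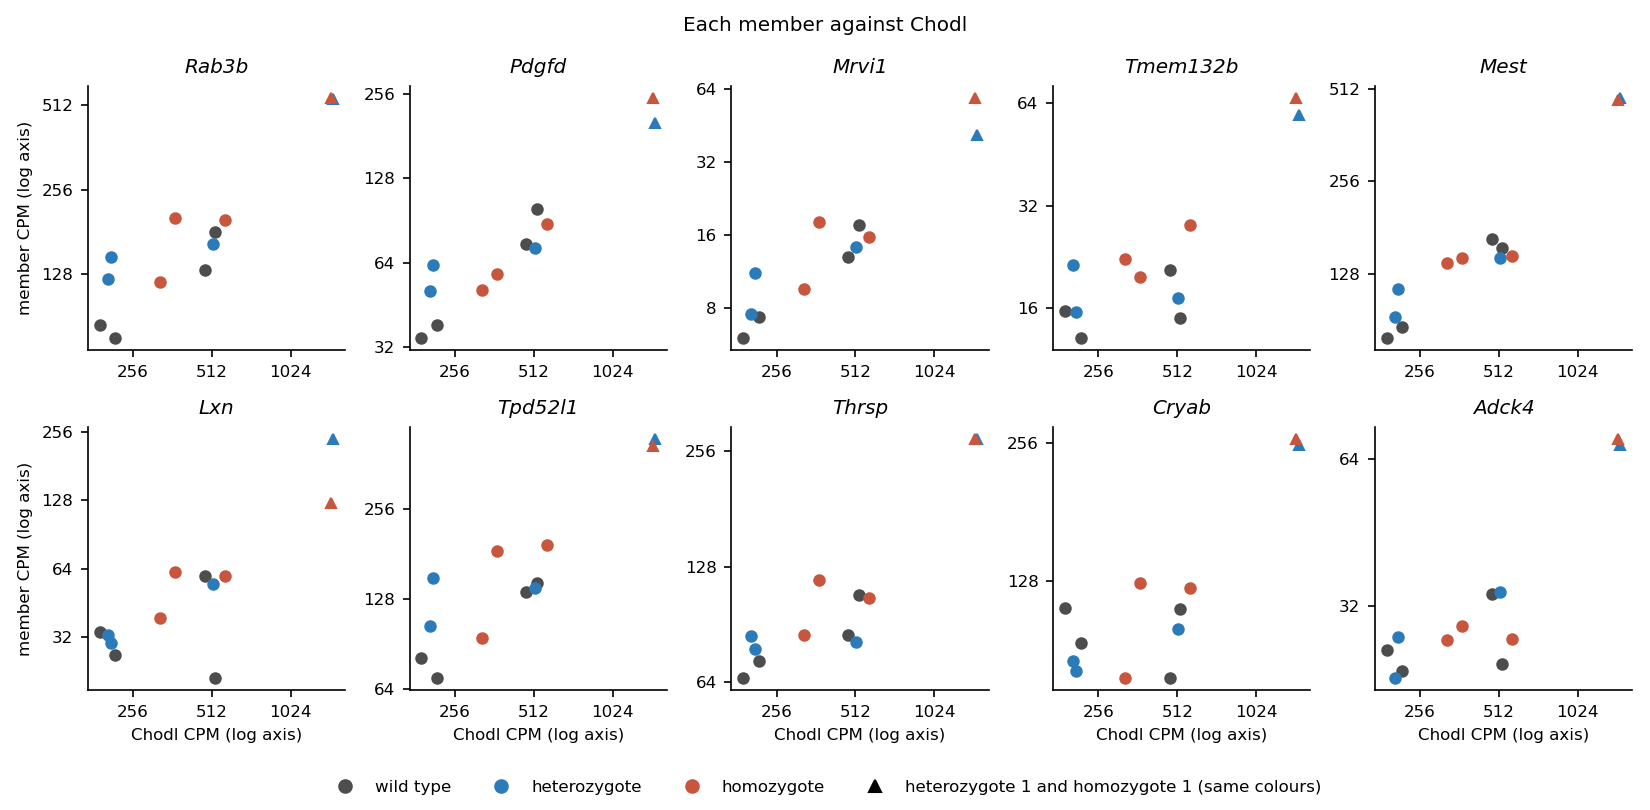
Level of each member against Chodl, both in CPM on log axes. Circles are the 10 libraries used for the slopes, coloured by genotype, and triangles are heterozygote 1 and homozygote 1. Mest and Pdgfd rise along a line through the circles, Cryab spreads between 78.2 and 126 CPM with little relation to Chodl, and in the panel of Lxn wild type 2, at 21.1 CPM of Lxn and 527 CPM of Chodl, is the lowest circle.

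Interneuron markers varied among the 10 libraries as well, and a comparison with them was added after the values had been seen. Slc6a5 was at 123, 130.3, 267 and 293 CPM in wild type 1 to 4, at 219.8, 143 and 159.7 CPM in heterozygotes 2 to 4 and at 160.1, 125 and 227 CPM in homozygotes 2 to 4. All 10 members correlated negatively with Slc6a5, with r from -0.80 to -0.23, beside 48.2% of all genes with r below 0. For 6 of them the unadjusted permutation p was below 0.05, beside 4.05% of all genes in that direction, and the adjusted p was 0.564 to 0.909. Rab3b gave r -0.80 (permutation p = 0.00565, adjusted p = 0.564) and rho -0.70 (permutation p = 0.0306, adjusted p = 0.704). Wild type 3 and 4, the libraries with the most Slc6a5, weighed on this relation: without them r was -0.48 for Rab3b, -0.60 for Mrvi1 and 0.08 for Tmem132b.

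The relation to Slc17a6 was weaker over the 10 libraries and rested on few of them. Its level ran from 159.7 to 323 CPM in the 10 libraries, and 9 of 10 members had r below 0, beside 49.4% of all genes, with a median of -0.11. None had an unadjusted permutation p below 0.05, beside 2.08% of all genes in that direction, and the sign turned under at least 1 alternative for 6 members. Without wild type 2 and homozygote 4, the libraries farthest from the median of Slc17a6, r was below 0 for all 10 members, from -0.60 for Mrvi1 to -0.27 for Adck4. That range overlaps the one for Slc6a5 without its 2 farthest libraries, and whether the members' relations to the 2 markers differ was not tested.

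The members also resembled each other over the 10 libraries, to differing degrees. The 45 pairs of members had a median r of 0.48, from -0.07 (Cryab and Adck4) to 0.96 (Rab3b and Tpd52l1), and 42.2% of them exceeded 0.5, beside a median of 0.001 and 8.91% over all pairs of genes with a mean of at least 10 CPM. These are descriptions with no test, and all pairs share the same libraries. Mrvi1 had the highest median r with the other members, 0.86, followed by Rab3b with 0.79, and Cryab the lowest, 0.19. Rab3b, Pdgfd, Mrvi1, Mest, Tpd52l1 and Thrsp correlated with each other at 0.70 or more, whereas Tmem132b, Lxn, Adck4 and Cryab stood further from them.

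**Figure D5:**
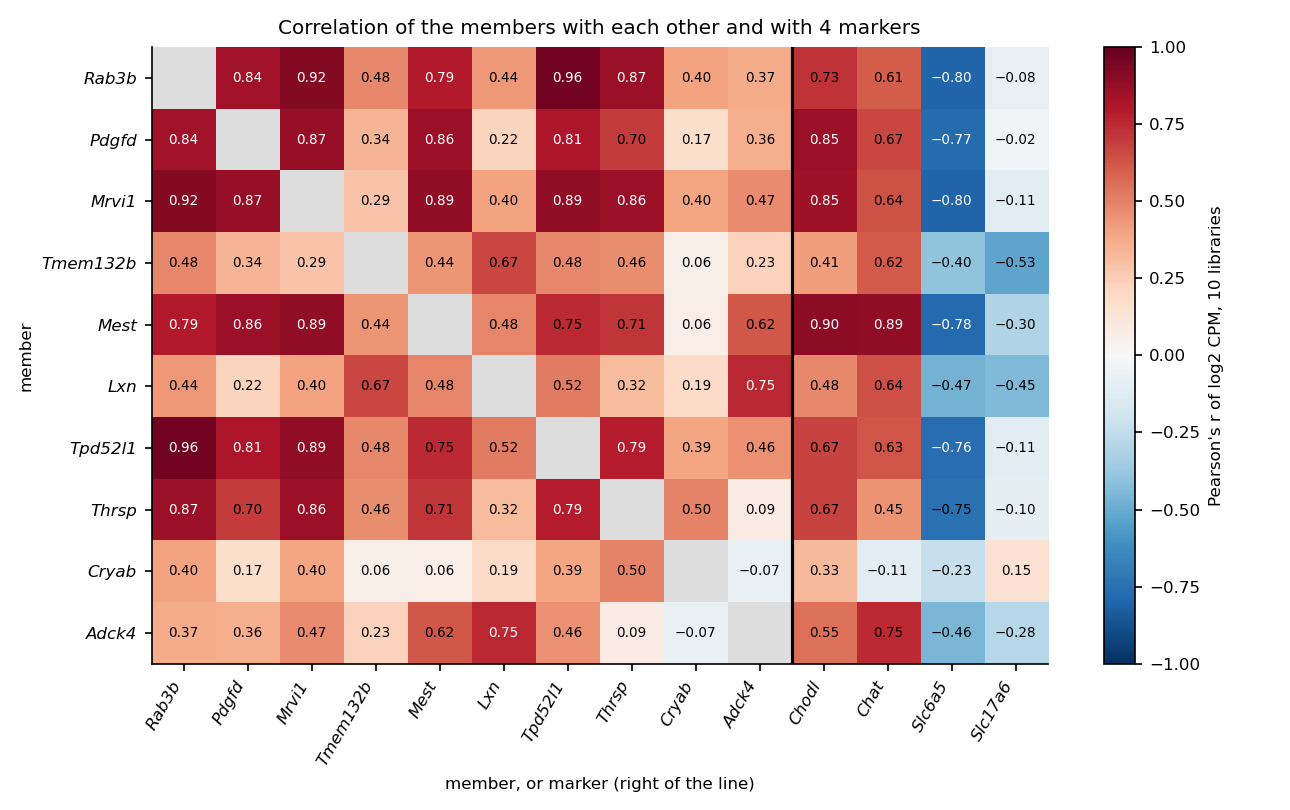
Pearson's r of log2 CPM over the 10 libraries not used to choose the members, between members (left of the line) and with Chodl, Chat, Slc6a5 and Slc17a6 (right of the line). Values are printed in the cells and red is positive. Rab3b, Pdgfd, Mrvi1, Mest, Tpd52l1 and Thrsp form the block of high values, and Slc6a5 is negative for every member.

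Among 9199 other genes with a mean of at least 10 CPM, the gene most like each member was sought by r over the 10 libraries. It was Slc10a4 for Mest (r 0.96), a transporter-like protein of cholinergic synaptic vesicles, with the choline transporter Slc5a7 next at 0.95. For Pdgfd it was Vipr2, a receptor for vasoactive intestinal peptide (0.97), with Itm2a next (0.96). Tpd52l1 and Rab3b were the closest match of each other, and for Thrsp it was Tspan15 (0.90), with Calca next (0.90). Of all genes tested with that mean, 14.7% were above the range in heterozygote 1 and homozygote 1. Slc10a4, Vipr2 and Tspan15 were above it, while Tpd52l1 and Rab3b were so by the choice of members. The nearest genes of the other 5 members, Uxt for Lxn (0.94), Snx15 for Tmem132b (0.89), 4632415K11Rik for Mrvi1 (0.95), Necap2 for Cryab (0.91) and Uba2 for Adck4 (0.94), were not.

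The study's own question, the effect of the Q331K change, was asked of the members in the same 10 libraries, 4 of wild type and 3 of each mutant genotype. No member and no gene of 16574 differed between genotypes by edgeR at an adjusted p below 0.05, which gives a background of 0% in each direction. Genes with an unadjusted p below 0.05 numbered 889 for homozygote against wild type, 875 for heterozygote against wild type and 711 for homozygote against heterozygote, and DESeq2 called 37, 31 and 27. Against wild type the homozygotes had estimates above 0 for 10 of 10 members, beside 48.9% of all genes, with a median of 0.36 on the log2 scale and a range of 0.05 (Adck4) to 0.59 (Lxn). In the same comparison 0 of 8 inhibitory interneuron markers and 0 of 9 astrocyte markers had estimates above 0, with medians of -0.50 and -0.23. Gad1, which makes the inhibitory transmitter GABA, was at -2.13 (unadjusted p = 0.00157, edgeR adjusted p = 0.833) and Slc17a6 at -0.48 (unadjusted p = 0.0142, edgeR adjusted p = 0.859). Of 4 excitatory interneuron markers, Slc17a6 among them, 2 had estimates above 0, with a median of 0.33. The counts were 5 of 10 for oligodendrocyte, 5 of 9 for microglial, 4 of 9 for endothelial and 5 of 10 for mural cell markers. For fibroblast and Schwann cell markers they were 2 of 5 and 2 of 2. The part of these cell types in the members' estimates was not tested. The heterozygotes had estimates above 0 for 7 of 10, beside 48.1% of all genes, from -0.15 (Cryab) to 0.29 (Tpd52l1). Homozygotes were above heterozygotes for 9 of 10, beside 50.4% of all genes.

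Tmem132b gave the lowest p of the members for homozygote against wild type, with a log2 difference of 0.54 (interval 0.09 to 0.98, unadjusted p = 0.0227, edgeR adjusted p = 0.907). It averaged 16.1 ± 3.28 CPM in wild type (SD, n = 4), 18.0 ± 3.06 CPM in heterozygotes (SD, n = 3) and 23.4 ± 4.28 CPM in homozygotes (SD, n = 3). Rab3b averaged 119 ± 48.9, 145 ± 20.2 and 174 ± 47.1 CPM in the same groups, a log2 difference of 0.55 between homozygotes and wild type with an interval of -0.07 to 1.18. Mest averaged 121 ± 45.2, 117 ± 25.8 and 142 ± 3.70 CPM, with a difference of 0.23 and an interval of -0.32 to 0.78. Chat and Chodl were also higher in homozygotes, by 0.29 (-0.51 to 1.09) and 0.26 (-0.66 to 1.17), and their part in the members' differences was not tested. Of 10 motor neuron markers, Chat and Chodl among them, 6 had estimates above 0 for homozygote against wild type, with a median of 0.23. Spp1, at -0.21, and Mmp9, at -0.006, were among those below 0. With heterozygote 1 and homozygote 1 included, the members' estimates against wild type rose to 0.52 to 1.22 in homozygotes and 0.40 to 1.33 in heterozygotes, which follows from the choice of members, and none passed.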

How the data were processed

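RNA from lower motor neurons was measured in 12 libraries, 4 per genotype. Per the labels' protocols, RNA was extracted with the PicoPure kit, copied with the template-switching SMART-seq v4 kit and made into libraries with Nextera XT. These kits add no molecular identifiers and keep no strand, so reads are not independent molecules. The deposited table holds unnormalized counts for each gene. The authors' tools included Trim Galore 0.4.3 for trimming and, for alignment to GRCm38, HISAT2 2.0.5, per the submitters' processing notes. The counting program, its annotation and strand setting are not given in the sources used here. Library totals were 60886825 to 83504446 counts, and each member had 406 to 38289 counts in a library. No 2 libraries agreed within sampling noise: over 66 pairs the chi-square divided by its degrees of freedom was at least 61.0. Positions were matched to GENCODE M21 by symbol, start and end, with Adck4 matched to Coq8b by overlap.

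Counts were scaled by TMM over all 12 libraries in edgeR 4.0.16 (R 4.3.3) and given as CPM, with a prior count of 2 for log2 values. Tests used the 10 libraries other than heterozygote 1 and homozygote 1: edgeR's quasi-likelihood test for genotype and for slopes on the log2 CPM of Chodl or Chat, after filterByExpr, with Benjamini-Hochberg adjustment over all 16574 genes, at a two-sided adjusted p below 0.05. Correlations used two-sided permutation tests. The fitting steps were tested on simulated data. Alternatives were all 12 libraries, DESeq2 1.42.0, its size factors, no filter, a filter of 5 CPM in 3 libraries, genotype in the slope model, the replicate number as a block, and leaving out each library. The members and gene lists were chosen with earlier results of these data known. Of each list, genes outside the range of the other libraries on the same side in both high libraries, genes that passed a test, or up to 2 abundant genes were named; others named were chosen after their values were seen. For each member, the gene with the highest r over the 10 libraries was named. Proteins, and the promoters of Cryab and Adck4, are not used here.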

Additional observations from a re-analysis of the deposited data

How the results depend on the processing

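Member slopes on Chodl kept their sign in all 160 fits on 10 or fewer libraries, and those on Chat in all but 3, all of Cryab. Genes called were 1 for homozygote against wild type over all 12 libraries, and 37 for it, 31 for heterozygote against wild type, 27 for homozygote against heterozygote and 32 for any difference with DESeq2. For Chodl they were 2138 over all 12 libraries, 190 with DESeq2, 11 with the stricter filter (members 10, 4 and 1) and 0 to 2 leaving out a library. For Chat they were 2116 over all 12, 724 with DESeq2 and 319 with the stricter filter, and 12 to 159 leaving out a library, the fewest without wild type 1. Members called for Chat were 10 over all 12, 3 with DESeq2, 0 with genotype in the model and 0 to 1 leaving out a library. Slopes over all 12 rest on the 2 libraries that chose the members. Scaled by library totals only, 1087 genes were above the others in both high libraries, against 1668, and all 10 members still were.

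Among the libraries used for tests, same-numbered libraries did not deviate together (r -0.011 to 0.037 over 9 pairs). The numbers were therefore not taken as pairs. Heterozygote 1 and homozygote 1 were left out, so a deviation shared by the libraries numbered 1 was not tested. The chi-square divided by its degrees of freedom was 88.0 between heterozygote 1 and homozygote 1. It was 243.4 to 381.8 between heterozygote 1 and the other heterozygotes, and 220.4 to 269.4 between homozygote 1 and the other homozygotes. With wild type 1 it was 228.2 and 210.3. With the replicate number as a block, 0 genes and 0 members were called for Chat, and Mest had a slope of 0.64 (edgeR adjusted p = 0.323). Wild type 1 was the only tested library numbered 1, so this block also sets wild type 1 aside. With that block the heterozygote against wild type difference was 0.17 for Mest and 0.016 for Thrsp.

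Signs turned in these cases, and the cause was not tested. Over all 12 libraries the Chat slope of Cryab was 0.56, and heterozygote against wild type was 0.77 for Mest, 0.65 for Thrsp and 0.40 for Cryab. Leaving out each library gave -0.12 to 0.11 for Cryab on Chat and r -0.27 to 0.17. For homozygote against wild type it gave -0.17 to 0.42 for Pdgfd and -0.0075 to 0.18 for Adck4. For heterozygote against wild type it gave -0.16 to 0.53 for Lxn, -0.23 to 0.14 for Mest, -0.12 to 0.13 for Thrsp, -0.23 to 0.32 for Mrvi1, -0.19 to 0.33 for Pdgfd and -0.10 to 0.20 for Adck4. The correlation with Slc17a6, added after seeing the data, ran from -0.26 to 0.13 for Rab3b, -0.35 to 0.10 for Thrsp, -0.36 to 0.057 for Mrvi1, -0.35 to 0.20 for Pdgfd, -0.39 to 0.13 for Tpd52l1 and -0.16 to 0.46 for Cryab. As deviations from genotype means it was 0.43 for Rab3b, 0.62 for Thrsp, 0.27 for Mrvi1, 0.11 for Pdgfd and 0.30 for Tpd52l1.

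With 10 libraries tested, 3 of them in each mutant genotype, the number of libraries limits the precision, and depth was not varied.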

Other observations

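Several genes that were not among the members exceeded the other 10 libraries in heterozygote 1 and homozygote 1 by as much as the members did. Calcb, which encodes a form of the neuropeptide CGRP, was at 832 CPM or more in both and at most 329.5 CPM in the others. Calca, which encodes the other form of CGRP, was at 1003 and 1465 CPM against 40.7 to 498 CPM, with wild type 3 the lowest and homozygote 3 the highest. Itm2a, a membrane protein gene, was at 596 CPM or more in both and at most 238 CPM in the others. Fxyd7, a regulator of the sodium pump in neurons, and Palm3 came next after Cryab in the order of the lower of the 2 values over the highest of the others, with ratios of 1.99 and 1.93. These are descriptions with no test.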
